A study of Mus musculus with 12 samples.

Results

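The 10 genes examined encode nuclear regulators of mitochondrial biogenesis, that is, transcription factors of the nucleus and the machinery that the nucleus supplies for copying and transcribing mitochondrial DNA. They are Nrf1, Gabpa, Esrra, Esrrg, Tfam, Tfb1m, Tfb2m, Polrmt, Polg and Twnk, chosen by gene symbol, and they are 10 of the 55573 genes in the count table. RNA was sequenced from cultured adipocytes, which had been differentiated from the SVF (stromal vascular fraction, the non-fat cells of digested adipose tissue) of mouse subcutaneous inguinal fat. The 3 genotypes, with 4 libraries each, were wild type (WT) and homozygous knock-in mice whose PPARγ carries alanine (T166A, TA) or aspartate (T166D, TD) at threonine 166, the second as a mimic of phosphorylation. The strain is given as C57BL/6 in the labels and as C57BL/6 J in the study's methods, the mutations were made by CRISPR and are carried in every cell, and the WT mice were littermates. The labels give no age for the mice and no line or clone number. Cells of every genotype received an induction medium for 4 days, with 850 nM insulin, 1 nM T3, 0.5 mM IBMX, 125 nM indomethacin and dexamethasone, then insulin and T3, and were harvested on day 8. Read counts per gene cannot show the altered codon. The labels do not say whether the 4 libraries of a genotype came from separate animals or cultures, so p-values measure the spread between these libraries, which may be technical.

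Most respiratory chain subunits are encoded in the nucleus, and a small set of them in mitochondrial DNA. NRF1, GABP (whose DNA-binding subunit is Gabpa, also named NRF2) and the estrogen-related receptors ERRα (Esrra) and ERRγ (Esrrg) bind promoters of the nuclear set, with PGC-1 proteins as coactivators. TFAM packages mitochondrial DNA and, with TFB2M and the RNA polymerase POLRMT, starts its transcription, TFB1M methylates the small mitochondrial ribosomal RNA, and POLG and the helicase TWINKLE (Twnk) copy the DNA. In beige and brown adipocytes this program supplies the respiratory capacity for thermogenesis. The comparisons ask how the levels of these genes stood in TD and TA, and whether they moved as the respiratory chain genes did.

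The promoters of the 4 genes that were called lower in TD versus WT are shown because they are the members on which the results turn, and because the factors above bind short motifs in such regions. The sequences are from RefSeq (GRCm38.p6) and run 5′ to 3′ on the strand of the gene over the 250 bases before its start, and capitals mark a match to the GABP motif CCGGAAGT or its reverse complement ACTTCCGG. The starts are those of RefSeq and differ from the ends of the gene spans given below, which are from GENCODE. These windows thus lie partly, and that of Twnk wholly, inside those spans. Tfam lay at chr10:71238045-71238294 on the minus strand, Twnk at chr19:45006308-45006557 on the plus strand (the one of its 2 starts with a match), Esrra at chr19:6921809-6922058 on the minus strand and Tfb1m at chr17:3557756-3558005 on the minus strand.
Tfam: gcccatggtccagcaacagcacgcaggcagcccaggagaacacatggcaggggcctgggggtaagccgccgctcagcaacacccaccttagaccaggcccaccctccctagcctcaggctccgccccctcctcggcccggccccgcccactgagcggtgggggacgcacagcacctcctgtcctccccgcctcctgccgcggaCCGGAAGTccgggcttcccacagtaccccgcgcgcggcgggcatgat
Twnk: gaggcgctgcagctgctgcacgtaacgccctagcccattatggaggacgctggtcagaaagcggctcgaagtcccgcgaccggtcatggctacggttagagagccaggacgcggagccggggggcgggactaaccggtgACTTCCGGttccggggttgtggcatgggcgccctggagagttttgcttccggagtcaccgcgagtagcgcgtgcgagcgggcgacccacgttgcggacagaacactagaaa
Esrra: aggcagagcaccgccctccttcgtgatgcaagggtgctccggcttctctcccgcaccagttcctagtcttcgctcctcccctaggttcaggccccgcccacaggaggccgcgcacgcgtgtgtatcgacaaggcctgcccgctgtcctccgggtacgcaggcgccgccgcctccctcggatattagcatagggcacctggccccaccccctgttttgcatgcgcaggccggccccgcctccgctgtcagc
Tfb1m: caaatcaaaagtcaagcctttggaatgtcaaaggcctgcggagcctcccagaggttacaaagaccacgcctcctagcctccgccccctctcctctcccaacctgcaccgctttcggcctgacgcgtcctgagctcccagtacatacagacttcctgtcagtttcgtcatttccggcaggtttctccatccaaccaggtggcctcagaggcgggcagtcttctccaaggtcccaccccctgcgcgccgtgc

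In the full windows of 300 bases, which add 50 bases after the start, the GABP motif was found in Tfam (beginning 47 bases before the start), Polg (38 bases before) and Twnk (111 bases before), thus in 3 of the 10 regulators, against 4.31% of 27025 genes with a window. The NRF1 motif GCGCATGCG, whose matches on the 2 strands can overlap each other, was found in Tfb2m only among the 10, against 1.95% of all genes. The ERR motif TCAAGGTCA was in the window of none of the 10, against 0.466% of all genes, so Esrra and Tfb1m held none of the 3 motifs. Of the 78 nuclear respiratory chain genes, 66 had a window, and 13.6% of these held the NRF1 motif, 7.58% the GABP motif and 3.03% the ERR motif. Among 22 genes of mitochondrial transcription and RNA processing, described below, 20 had a window. The GABP motif was in 25% of these, near the share of the 10 regulators, and the NRF1 and ERR motifs were in 0%. Each motif was searched on both strands. A match describes the letters of a window and is not evidence of binding.

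Across the table, library totals ran from 16553324 to 20324286 counts, and all WT libraries were deeper than those of TA and TD. Of 15117 genes tested by edgeR's quasi-likelihood test, 29.2% were called (adjusted p under 0.05) between TD and WT, of which 15.1% of all genes had a rise in TD and 14.2% a fall. TA differed from WT in 11.1% of genes (6.72% higher, 4.41% lower) and TD from TA in 16.7% (7.33% higher, 9.37% lower). Markers of several other cell types moved with genotype, and their sums are given by library range. Summed adipocyte markers were at 23440 to 25980 CPM (counts scaled to a common, normalized library size) in WT, 21870 to 28670 in TA and 16120 to 18240 in TD, and 9 of the 10 were called lower in TD versus WT. Summed skeletal muscle markers were at 5.54 to 13.9 CPM in WT, 21.4 to 82.6 in TA and 20.5 to 301.5 in TD, where libraries 3 and 4 were highest. Of these, 11 of 11 tested were called higher in TD versus WT, and the muscle regulators Myog and Myod1 had no counts in WT. Fibroblast and preadipocyte markers summed to 4113 to 4876 CPM in WT, 3908 to 6912 in TA and 6458 to 8898 in TD (6 of 8 called higher in TD versus WT), and endothelial markers to 25.0 to 52.7, 45.9 to 82.6 and 95.4 to 121 (5 of 6). Macrophage markers summed to 272 to 796, 132 to 580 and 611 to 853 CPM. Of these, 0 of 8 were called in TD versus WT, and 3 of 8 were called higher in TD versus TA. In such bulk samples, fewer cells of a type and less RNA per cell cannot be told apart.

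In TD against WT, 4 of the 9 regulators tested were called, all lower: Esrra, Tfam, Tfb1m and Twnk. The share called lower among all genes was 14.2%. The libraries of the 2 genotypes did not overlap for 6 of the 9, against 32.2% of all genes. The median log2 fold change of the 9 was −0.26, against 0.011 for all genes tested. In TA against WT, edgeR called 0 of the 9 and DESeq2 also 0, beside 4.41% of all genes called lower and 6.72% called higher by edgeR. At an unadjusted p under 0.05 there were 3 (Esrra, Polg and Twnk), beside 25.2% of all genes. Their median was −0.15, against −0.0055 for all genes. In TD against TA, 2 of the 9 were called lower, Esrra and Tfam, against 9.37% of all genes, and their median was −0.13, against 0.023. Esrrg was too low to be tested.

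**Figure D1:**
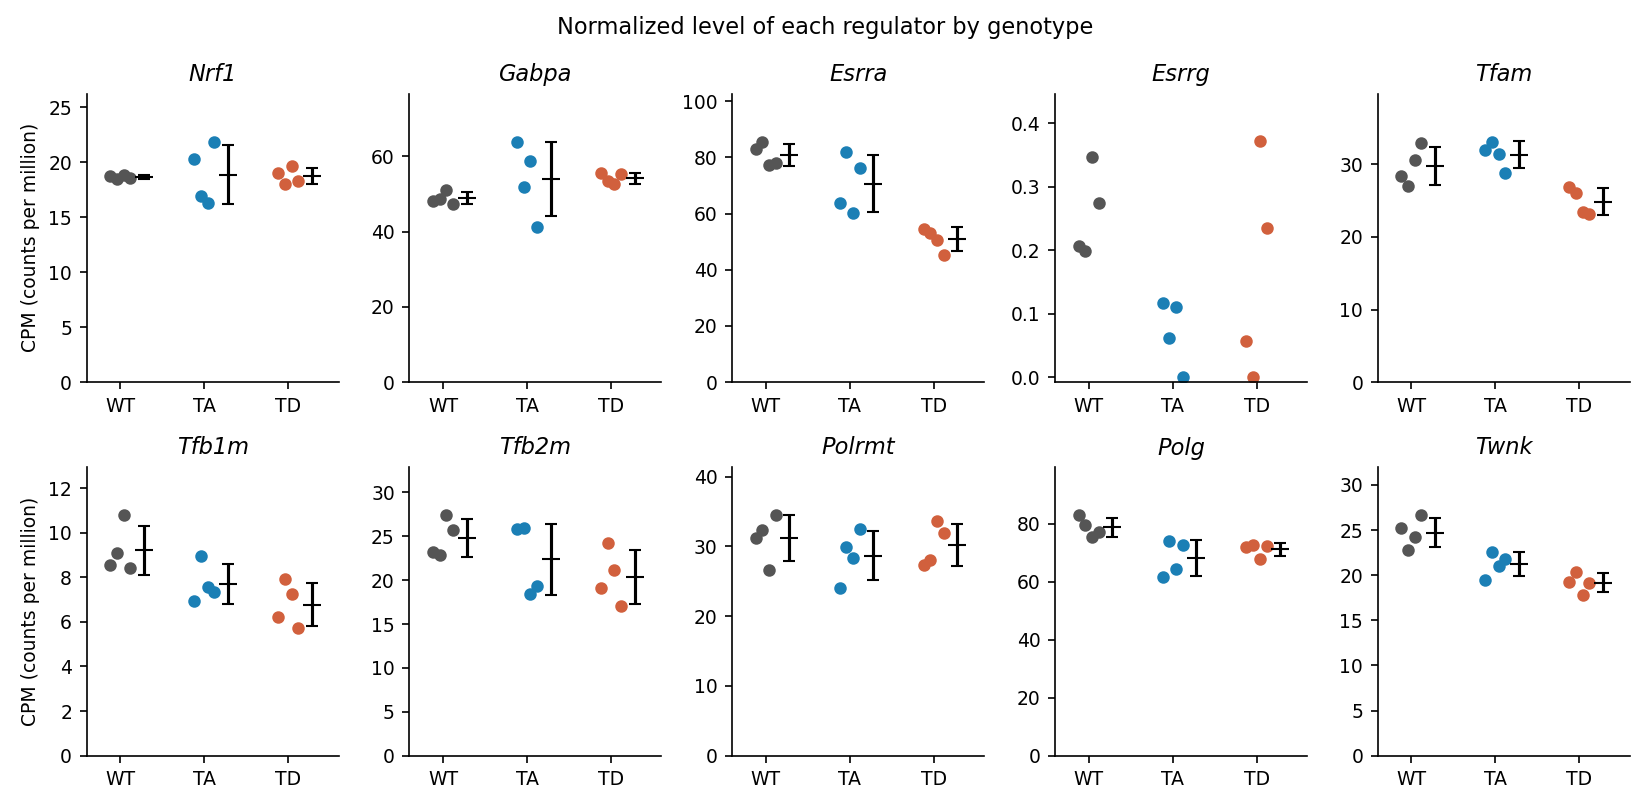
CPM of each of the 10 regulators (y axis, each starting at 0) in the 4 libraries of WT, TA and TD (points), with the mean and SD as a bar beside them except for Esrrg, which had at most 7 counts in a library. The TD libraries of Esrra, Tfam, Tfb1m and Twnk all sit below the WT libraries, while those of Nrf1 lie among them.

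Among the DNA-binding regulators, Esrra stood out by its fall in TD. ERRα is an orphan nuclear receptor and a main partner of PGC-1 coactivators on genes of oxidative metabolism. Esrra was at 82.9, 85.6, 77.4 and 77.8 CPM in WT, 63.9, 81.8, 60.3 and 76.3 in TA, and 54.7, 53.2, 50.6 and 45.1 in TD. All TD libraries lay below every WT and TA library, and the TA libraries spread from the TD side up into the WT range. Against WT the level in TD fell by 37.1%, a log2 fold change of −0.67 (SE 0.094, 95% CI −0.87 to −0.47, edgeR adjusted p = 0.000187), and against TA the change was −0.47 (CI −0.67 to −0.27, adjusted p = 0.00328). The change in TA against WT was −0.20 (SE 0.094, edgeR adjusted p = 0.198). The gene lies at chr19:6910977-6921813 (GRCm38, minus strand), and 73 exonic bases overlap Trmt112 on the other strand, which had a mean of 109 counts per library against 1239 for Esrra.

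Nrf1 and Gabpa did not follow. Nrf1, at chr6:30047988-30153458, was at 18.8, 18.5, 18.8 and 18.6 CPM in WT, 20.3, 16.9, 16.3 and 21.9 in TA, and 19.1, 18.0, 19.6 and 18.3 in TD. Its WT and TD libraries overlapped, the TA libraries bracketed both, and the log2 fold change of TD against WT was 0.0068 (95% CI −0.20 to 0.22, edgeR adjusted p = 0.968), so the interval leaves out falls as large as that of Esrra. For TA against WT the change was 0.016 (edgeR adjusted p = 0.945). Gabpa, at chr16:84834925-84863779, was at 48.2, 48.8, 51.2 and 47.4 CPM in WT, 63.9, 51.8, 58.7 and 41.2 in TA, and 55.7, 53.5, 52.6 and 55.2 in TD. Every TD library was above every WT library, but the change of 0.15 (CI −0.065 to 0.36) did not pass the test (edgeR adjusted p = 0.291), and the TA libraries held both the highest and the lowest values. Gabpa shares 397 exonic bases with Atp5j, an ATP synthase subunit gene on the opposite strand that had more counts (mean 2110 against 955 per library) and was lower in TD than in WT (−0.44, edgeR adjusted p = 0.00176). Since the strand setting of the counting is not given in the sources used here, the counts of Gabpa are uncertain.

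Esrrg, at chr1:187608791-188214885, had 4, 4, 7 and 5 counts in WT, 2, 1, 2 and 0 in TA, and 1, 0, 7 and 4 in TD. Each TA library was below each WT library and TD spanned both, but these are a handful of counts. Without the filter on low counts, edgeR's adjusted p was 0.717 for TD against WT, 0.361 for TA against WT and 0.570 for TD against TA.

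Of the genes for mitochondrial transcription, Tfam and Tfb1m were lower in TD, while Polrmt and Tfb2m did not pass the test. Tfam (chr10:71225464-71238280) was at 28.4, 27.0, 30.6 and 33.0 CPM in WT, 32.0, 33.1, 31.4 and 28.8 in TA, and 26.8, 26.0, 23.4 and 23.2 in TD. The TD libraries were below all others, by a narrow margin against the WT library at 27.0 CPM, and the WT and TA libraries overlapped. Against WT the log2 fold change in TD was −0.26 (SE 0.086, 95% CI −0.44 to −0.075, edgeR adjusted p = 0.0339) and against TA it was −0.33 (CI −0.52 to −0.15, adjusted p = 0.0156). For TA against WT it was 0.075 (edgeR adjusted p = 0.651).

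Tfb1m (chr17:3519256-3557781) was at 8.55, 9.08, 10.8 and 8.43 CPM in WT, 6.95, 8.97, 7.56 and 7.33 in TA, and 6.24, 7.92, 7.23 and 5.74 in TD. All TD libraries lay below all WT libraries, and TA overlapped both. The change in TD against WT was −0.44 (SE 0.14, 95% CI −0.74 to −0.14, edgeR adjusted p = 0.0271), while TA against WT (−0.26, adjusted p = 0.270) and TD against TA (−0.18, adjusted p = 0.415) did not pass the test. With a mean of 145 counts per library it was the lowest in counts of the 9 genes tested, and 142 of its exonic bases overlap Tiam2 on the other strand (mean 62.4 counts).

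The calls of Tfam and Tfb1m in TD against WT were lost under library totals alone, without the filter on low counts and without several single libraries. Tfam had an adjusted p of 0.0713 without WT library 3, 0.115 without WT library 4, 0.0994 without TD library 3 and 0.103 without TD library 4 by edgeR. Its call in TD against TA was lost without TA library 2 (edgeR adjusted p = 0.0571), TD library 3 (0.0555) or TD library 4 (0.0569). Tfb1m had 0.0895 without WT library 3, 0.0671 without TD library 1 and 0.0932 without TD library 4 by the same test.

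Tfb2m (chr1:179528055-179546267), whose product opens the promoter for the polymerase, was at 23.2, 22.8, 27.4 and 25.7 CPM in WT, 25.9, 25.9, 18.4 and 19.4 in TA, and 19.1, 24.3, 21.2 and 17.0 in TD. The genotypes overlapped, with a log2 fold change in TD against WT of −0.28 (95% CI −0.56 to −0.0031, edgeR adjusted p = 0.120). Polrmt (chr10:79736123-79746581), the polymerase itself, was at 31.1, 32.3, 26.7 and 34.5 CPM in WT, 24.0, 29.9, 28.4 and 32.5 in TA, and 27.4, 28.1, 33.7 and 31.9 in TD. The 3 genotypes covered the same range, and the change in TD against WT was −0.042 (CI −0.27 to 0.18, edgeR adjusted p = 0.805).

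The replication genes Twnk and Polg differed in which genotypes they separated. Twnk (chr19:45005663-45012762), the replicative helicase, was at 25.2, 22.8, 24.2 and 26.7 CPM in WT, 19.5, 22.6, 21.0 and 21.8 in TA, and 19.3, 20.4, 17.8 and 19.1 in TD. WT libraries were above all TA and TD libraries, and TA and TD overlapped. TD against WT gave −0.37 (SE 0.086, 95% CI −0.55 to −0.19, edgeR adjusted p = 0.00446), TA against WT −0.22 (CI −0.40 to −0.041, adjusted p = 0.109) and TD against TA −0.15 (adjusted p = 0.266). Twnk shares 507 exonic bases with Mrpl43 on the opposite strand, which had more counts (mean 464 against 398) and changed by −0.30 in TD against WT (edgeR adjusted p = 0.0529), so the counts of Twnk are uncertain. Without TD libraries 3 and 4 the change in TD against WT was −0.32 (edgeR adjusted p = 0.0865).

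Polg (chr7:79446231-79466362), the catalytic subunit of the mitochondrial DNA polymerase, was at 83.0, 79.5, 75.3 and 77.1 CPM in WT, 61.6, 74.1, 64.3 and 72.8 in TA, and 71.9, 72.8, 67.8 and 72.2 in TD. WT libraries were above all others, with TD inside the TA range. Neither TA against WT (−0.21, 95% CI −0.36 to −0.055, edgeR adjusted p = 0.0760) nor TD against WT (−0.15, CI −0.30 to 0.0065, adjusted p = 0.141) passed the test. Polg and Twnk were the only genes of the 9 tested whose TA and WT libraries did not overlap, which held for 13.6% of all genes, and Esrra and Tfam the only ones for TD and TA, against 19.9%. Without TA library 2 or TA library 4 the Polg change in TA against WT was called, at −0.25 each (edgeR adjusted p = 0.0436 and 0.0457). The 921 exonic bases that Polg shares with Fanci concern few counts (mean 31.3 for Fanci, 1333 for Polg).

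Per kilobase of merged exons, Esrra was the most abundant of the 10 in WT at 18.5 ± 0.905 CPM per kb (SD, n = 4), and all its libraries were above those of every other gene. Tfb2m (8.84 ± 0.781) and Gabpa (8.60 ± 0.285) followed and overlapped, then came Polg (7.33 ± 0.309), Tfam (6.70 ± 0.592), Polrmt (6.65 ± 0.701) and Twnk (6.16 ± 0.406), each overlapping the next. Tfb1m (2.55 ± 0.302), Nrf1 (1.81 ± 0.0149) and Esrrg (0.041 ± 0.011) stood apart from their neighbours. In TD, Esrra (11.6 ± 0.961) was still first, above Gabpa (9.53 ± 0.257) without overlap, and Tfb1m (1.88 ± 0.271) overlapped Nrf1 (1.82 ± 0.071). This order depends on the lengths used, which merge all annotated exons of a gene (10742 bases for Polg, 4387 for Esrra). Before the division by length, Polg (78.7 CPM) was close to Esrra (80.9 CPM) in WT.

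Set against the respiratory chain, Esrra lay near the centre of the respiratory chain genes, and the other regulators tested lay nearer to 0. Of 77 nuclear respiratory chain genes tested (of 78 listed), 74 were called lower in TD versus WT by edgeR, and all 77 had negative log2 fold changes, with a median of −0.70 and a range of −1.70 to −0.29. The medians were −0.69 for complex I (34 of 35 called, largest called fall Ndufb6, −1.01), −0.65 for complex II (4 of 4, Sdhb, −0.77), −0.73 for complex III with cytochrome c (10 of 10, Uqcrq, −1.08), −0.81 for complex IV (13 of 13, Cox7a1, −1.70) and −0.54 for ATP synthase (13 of 15, Atp5d, −0.73). In TA against WT the median was −0.12 with 1 gene called, Cox7a1 (−0.84, edgeR adjusted p = 0.0282). In TD against TA it was −0.55 with 72 called. Esrra, at −0.67 in TD against WT and −0.47 in TD against TA, lay near these medians. Tfam, Tfb1m and Twnk lay between 0 and the median, and the intervals of Nrf1, Gabpa and Polrmt spanned 0 and left out the median of −0.70.

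**Figure D2:**
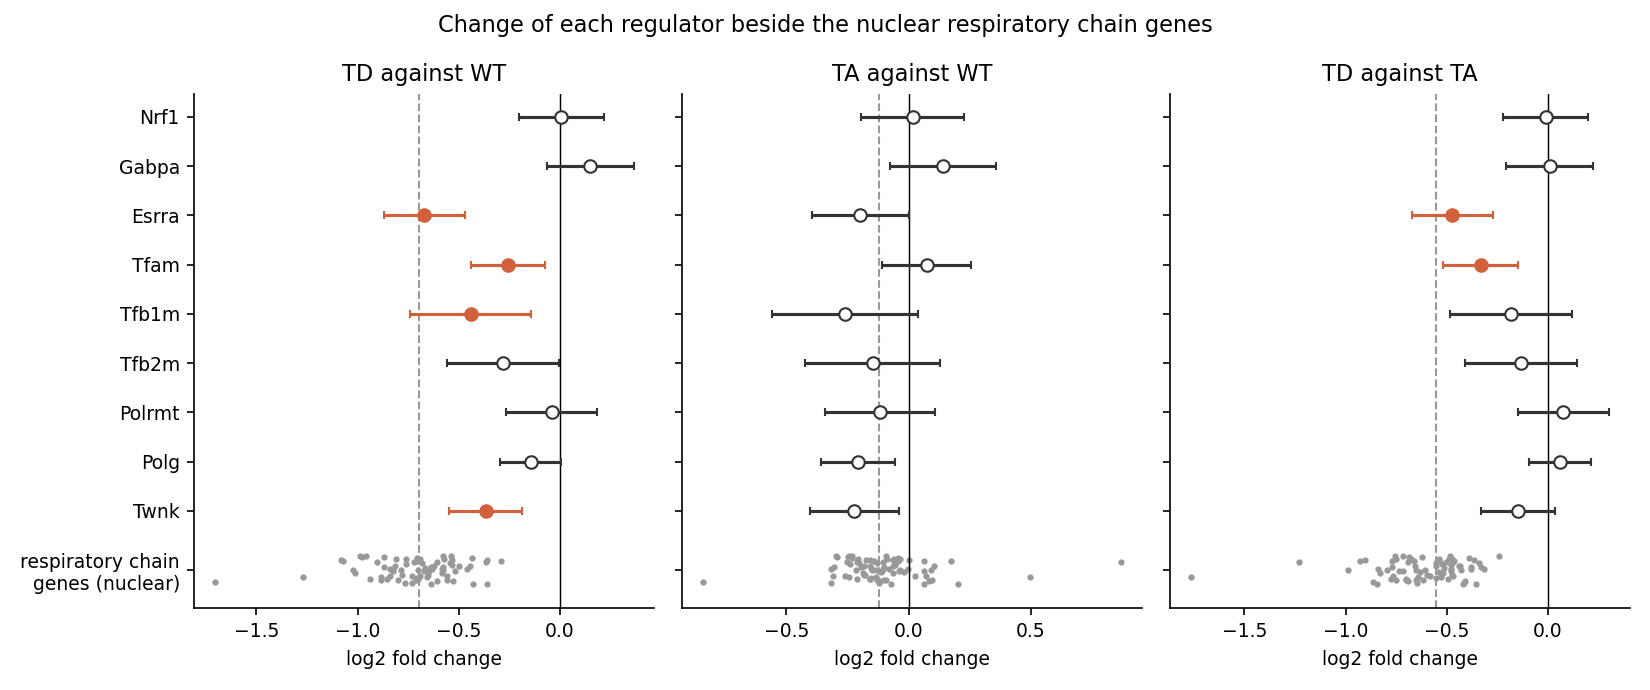
Log2 fold change (x axis) of the 9 regulators tested with 95% confidence intervals, filled and orange where the edgeR adjusted p was under 0.05, and of the 77 nuclear respiratory chain genes tested (grey points, median as a dashed line), for each of the 3 comparisons. The intervals of Esrra and Tfb1m span the median of −0.70 in the panel of TD against WT, and those of the other 7 lie to its right.

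Levels were also set against the respiratory chain within each library, in a comparison chosen after seeing the data. Nuclear respiratory chain genes took 1.61, 1.38, 1.35 and 1.45% of counts in the WT libraries, 1.24, 1.49, 1.15 and 1.38% in TA, and 1.03, 1.00, 0.889 and 0.844% in TD, with TD below all others. Per 1000 of these counts, Esrra had 5.03 to 6.24 in WT and 5.51 to 5.83 in TD, a difference in mean log2 ratio of 0.016 (exact permutation p = 0.886). Polg had 5.04 to 5.80 in WT and 7.25 to 8.83 in TD, Gabpa 2.93 to 3.78 and 5.54 to 6.75, Nrf1 1.14 to 1.39 and 1.87 to 2.26, Polrmt 1.89 to 2.35 and 2.76 to 3.90, Tfam 1.72 to 2.26 and 2.69 to 2.84, and Twnk 1.53 to 1.79 and 1.95 to 2.34. For these 6 genes every TD library was above every WT library, by 0.32 (Twnk) to 0.84 (Gabpa) on the log2 scale, each at the smallest exact permutation p of 4 against 4 libraries (0.0286, adjusted 0.0643 over 27 tests). Tfb1m (0.24, exact p = 0.229) and Tfb2m (0.40, exact p = 0.0571) overlapped. Of the 9 genes in TA against WT, all overlapped. Against TA, Esrra had 4.93 to 5.49 per 1000 in TA and was higher in every TD library, by 0.092 (exact permutation p = 0.0286, adjusted 0.0643), as were Nrf1, Gabpa, Polrmt, Polg and Twnk, by 0.41 (Twnk) to 0.64 (Polrmt) with the same p, while Tfam, Tfb1m and Tfb2m overlapped. Since the respiratory chain share was itself lower in TD, this division alone would place a gene of unchanged level higher in TD. The share of all genes without overlap in this ratio was not computed.

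**Figure D3:**
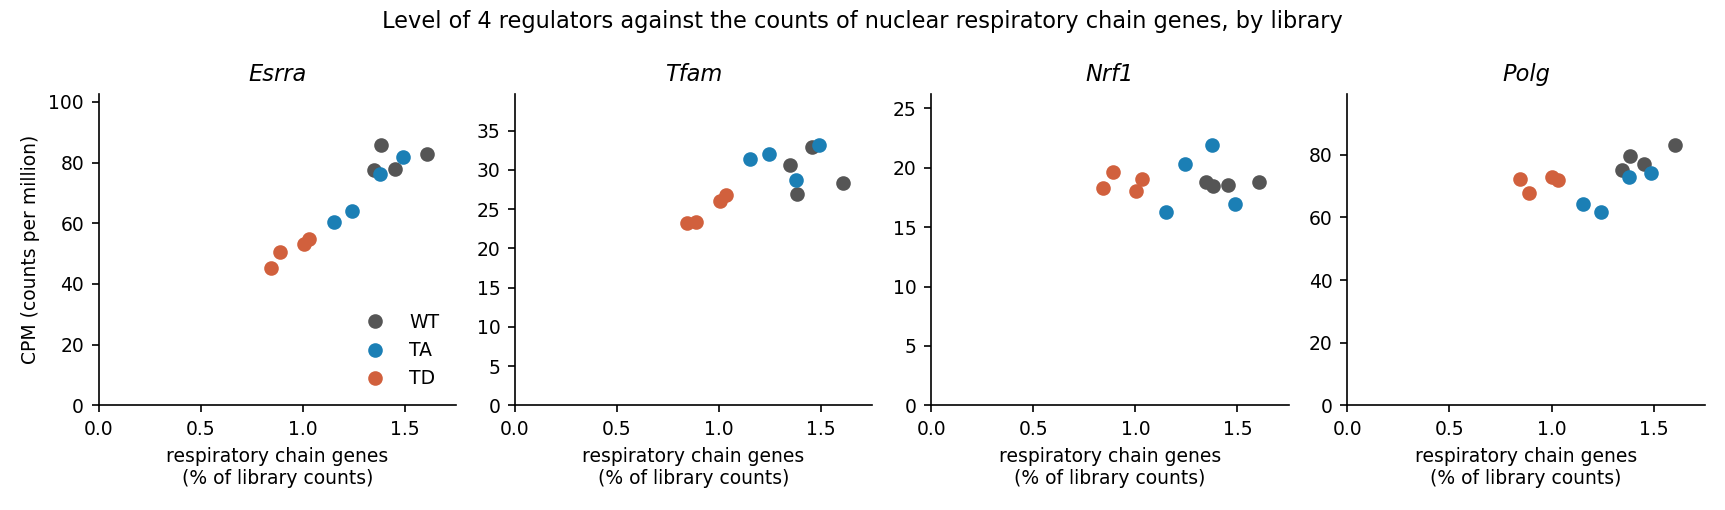
CPM (y axis) of Esrra, Tfam, Nrf1 and Polg against the percentage of a library's counts in nuclear respiratory chain genes (x axis), 1 point per library, coloured by genotype; both axes start at 0. Esrra falls from the WT to the TD libraries along with the respiratory chain share, whereas Nrf1 stays between 16.3 and 21.9 CPM over shares of 0.844% to 1.61%.

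Relative to the summed counts of the adipocyte markers, also chosen after seeing the data, Esrra was lower in TD than in WT (log2 difference −0.17) and in TA than in WT (−0.24), with no overlap of libraries. Tfam (0.25), Twnk (0.14), Polg (0.36), Nrf1 (0.51), Gabpa (0.65) and Polrmt (0.46) were then higher in TD than in WT, without overlap. Tfb1m (0.058, exact permutation p = 0.743) and Tfb2m (0.215, exact permutation p = 0.143) overlapped. Those without overlap had an exact permutation p of 0.0286, adjusted to 0.0514 over 27 tests. The share of all genes without overlap in this ratio was not computed. Relative to the same markers, Twnk (−0.26) and Polg (−0.25) were lower in TA than in WT, with no overlap and the same exact p. Since the marker sum itself was lower in TD, this division raised the difference of each of the 9 regulators in TD against WT by about the same amount (Nrf1 from 0.0068 to 0.51), which turned Tfam, Tfb1m, Tfb2m, Polg, Twnk and Polrmt from a negative to a positive value. The part of the fibroblast, endothelial and muscle markers in these results was not tested. TD libraries 3 and 4 had most muscle marker counts. Within TD they also had the highest fibroblast marker sums (8536 and 8898 CPM) and the lowest adipocyte marker sums (17180 and 16120 CPM). Leaving them out therefore isolates no single marker set. Esrra was then the only regulator called in TD against WT (−0.59, edgeR adjusted p = 0.0101). None was called in TD against TA, where Esrra was at −0.39 (edgeR adjusted p = 0.0820). With these libraries left out, TD against WT was −0.17 for Tfam and −0.38 for Tfb1m (edgeR adjusted p = 0.349 and 0.195), in a test with only 2 TD libraries.

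The transcripts that this machinery makes from mitochondrial DNA were also lower in TD. Of the 13 mitochondrially encoded proteins, 11 were called lower in TD versus WT by edgeR (median −0.84, largest called fall mt-Nd4l, −1.19), 2 in TA than in WT (median −0.28, mt-Co1 −0.62) and 5 in TD than in TA (median −0.56, mt-Co3 −0.83). Counts of mt-Nd4l were few, 17 to 26 in the WT libraries and 7 to 9 in TD. The 13 genes together took 4.68 to 5.57% of counts in WT, 2.60 to 4.25% in TA and 2.73 to 3.38% in TD. This sum weighs mt-Co1 most, at a mean of 29620 CPM in WT, before mt-Cytb at 6341. In contrast, mt-Co2, mt-Co3, mt-Atp6, mt-Nd3, mt-Nd4l and mt-Atp8 had means of 37.2 CPM or less in WT. The log2 ratio of the summed counts of the 13 to those of the nuclear respiratory chain genes was 1.80, 1.76, 1.90 and 1.85 in WT, 1.73, 1.51, 1.56 and 0.92 in TA, and 1.71, 1.69, 1.64 and 1.69 in TD. Every TA and TD library was below every WT library, with TA library 4 lowest. The difference was −0.14 in TD against WT and −0.39 in TA against WT (exact permutation p = 0.0286 each, adjusted 0.0429 over 3 tests), and 0.25 in TD against TA (exact permutation p = 0.143). Without TA library 4 the TA difference was −0.22, and taken as the mean of log2 CPM the differences from WT were −0.093 in TD and −0.18 in TA (exact permutation p adjusted to 0.343 and 0.914). Without any single WT library the adjusted exact permutation p of TD and TA against WT was 0.0857. The libraries left still did not overlap, and the test then had fewer of them.

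Other genes of the pathway were described from lists of known regulators, replication factors and transcription factors. Of 21 further nuclear regulators and coactivators tested, TD versus WT gave 2 higher and 5 lower (15.1% and 14.2% of all genes), TA versus WT 3 higher and 1 lower (6.72% and 4.41%), and TD versus TA 1 higher and 5 lower (7.33% and 9.37%). The coactivator genes of the PGC-1 family split. Ppargc1a (PGC-1α) was at 11.8, 11.8, 10.6 and 10.9 CPM in WT, 19.3, 15.1, 15.5 and 14.8 in TA, and 8.56, 9.64, 9.25 and 9.31 in TD, so that the 3 genotypes did not overlap. It rose in TA against WT (0.52, edgeR adjusted p = 0.00533) and was lower in TD than in TA (−0.81, adjusted p = 0.000173), while TD against WT was −0.29 (adjusted p = 0.0576).

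Ppargc1b (PGC-1β), an ERRα coactivator, was at 12.2, 12.6, 15.0 and 22.8 CPM in WT, 7.60, 8.78, 7.45 and 8.16 in TA, and 9.30, 7.64, 9.84 and 10.0 in TD. Every library of both mutants was below every WT library, with log2 fold changes of −0.77 in TD (edgeR adjusted p = 0.00378) and −0.97 in TA (adjusted p = 0.00181). Pprc1, the third member of the family, was higher in TD than in TA (0.34, edgeR adjusted p = 0.0362) but differed from WT in neither by the test. The largest other called rise was Gabpb2, a partner subunit of GABP, in TD against WT (0.39, edgeR adjusted p = 0.00828), and Rxra, the dimer partner of PPARs, in TA against WT (0.58, adjusted p = 4.3e-05).

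Of 20 genes of mitochondrial DNA replication and nucleotide supply, 1 was called higher and 3 lower in TD versus WT, beside 15.1% and 14.2% of all genes. The largest called fall was Slc25a33, a mitochondrial pyrimidine nucleotide carrier, at 33.5, 29.0, 30.7 and 25.5 CPM in WT and 14.5, 10.4, 12.9 and 9.02 in TD (−1.34, edgeR adjusted p = 0.000122), and the gene called higher was Samhd1, which hydrolyses dNTPs (0.46, adjusted p = 0.000376). Of 22 genes of mitochondrial transcription and RNA processing, 12 were called lower in TD versus WT against 14.2% of all genes, with a median of −0.35 and Slirp, a binding partner of LRPPRC, as the largest called fall (−0.55, edgeR adjusted p = 0.00482). In TA against WT 2 of the 22 were called lower, beside 4.41% of all genes, and in TD against TA 2, beside 9.37%.

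**Figure D4:**
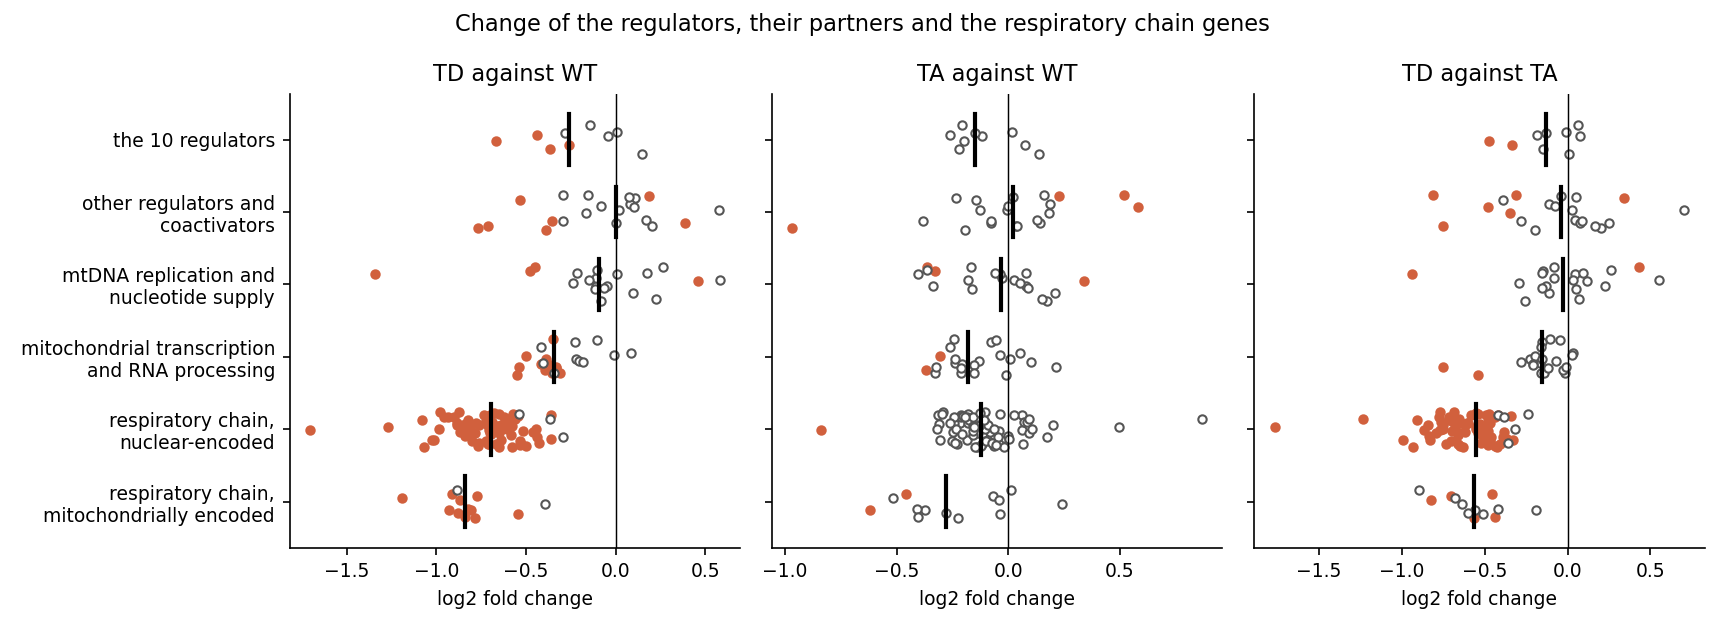
Log2 fold change (x axis) of each gene tested in the 10 regulators, the 3 pathway lists, the nuclear-encoded and the mitochondrially encoded respiratory chain genes, with the list median as a black bar and genes of edgeR adjusted p under 0.05 filled in orange, for the 3 comparisons. In TD against WT the medians run from about 0 for other regulators and −0.26 for the 9 regulators tested to −0.35 for mitochondrial transcription, −0.70 for nuclear and −0.84 for mitochondrially encoded respiratory chain genes.

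The genes whose profile over the 12 libraries was most like that of each regulator were found among 140 genes of the pathway and respiratory chain lists, by the root mean square difference of log2 CPM after centring each gene. For Esrra they were Uqcrfs1 (0.071), the Rieske protein of complex III, and Atp5b (0.079), the β subunit of ATP synthase, beside an SD of Esrra itself of 0.32 over the libraries. For Tfam they were Prkaa1 (0.093) and Atp5c1 (0.13). Polg was nearest to Tk2 (0.063), the mitochondrial thymidine kinase, and Twnk to Elac2 (0.073) and Tbrg4 (0.078). Gabpa was nearest to Creb1 (0.066). For Nrf1 the nearest were Lig3 (0.13) and Yy1 (0.13), about as far away as the nearest genes of Tfb2m and Polrmt. These distances exceeded its own SD of 0.11, but that SD was the smallest of the regulators tested, so this does not set its profile apart. Tfb1m was nearest to Mgme1 and Grsf1 (0.12 each), Tfb2m to Rrm2b (0.13) and Polrmt to Fastk (0.14).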

How the data were processed

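The authors sequenced RNA of 12 libraries and deposited read counts per gene, without normalization, for 55573 genes. The submitters' processing notes name bcl2fastq 2.17.1.14, cutadapt 1.9.1, HISAT2 2.0.1, HTSeq 0.6.1 and the build GRCm38; the strand setting is not given in the sources used here. The library files equalled the table. Dexamethasone is given as 5 mM in the labels, and in another unit in the study's methods. The 10 genes and the lists beside them were chosen with earlier results of these data known.

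Counts were filtered with filterByExpr (minimum count 10, minimum total 15; 15117 genes left), normalized by TMM (factors 0.957 to 1.04) and fitted with edgeR 4.0.16 (R 4.3.3) over all libraries at once. Tests were two-sided, with Benjamini-Hochberg adjustment over all genes tested. Ratios within libraries were compared by two-sided exact permutation tests. Alternatives included DESeq2 1.42.0, other scalings and filters, and leaving out libraries. Positions and exons are from GENCODE M21. Besides the 10 genes and the 3 PGC-1 genes, those named have the largest called rise or fall of their list, the most similar profile, or overlap a member. The steps were tested on simulated data. Libraries of 1 genotype differed by more than sampling noise in all 18 pairs.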

Additional observations from a re-analysis of the deposited data

How the results depend on the processing

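Esrra kept its call in TD against WT under every alternative run, with log2 fold changes of −0.71 to −0.62 when single libraries were left out. In TD against WT the number of regulators called by edgeR, 4 in the report, was 2 with library totals alone and 2 without the filter on low counts (Esrra and Twnk both times), 1 without TD libraries 3 and 4, which was chosen after seeing the data, and 2 to 4 when single libraries were left out. In TA against WT leaving out single libraries gave 0 to 1, and in TD against TA 1 to 2, or 0 without TD libraries 3 and 4. DESeq2 called the same regulators as edgeR in each comparison. Genes called in TD against WT fell from 4418 to 1516 and in TD against TA from 2524 to 634 without TD libraries 3 and 4. Leaving out single libraries gave 3121 to 4413 in TD against WT, 1160 to 1939 in TA against WT and 1422 to 3521 in TD against TA (1422 without TA library 2, 1584 without TD library 3 and 1432 without TD library 4). Library totals alone moved the share of calls that were higher from 51.5% to 64.5% in TD against WT and from 43.9% to 64.6% in TD against TA.

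The nuclear respiratory chain median ranged from −0.74 to −0.62 in TD against WT, −0.20 (without TA library 2) to −0.051 (without WT library 1) in TA against WT and −0.64 to −0.51 in TD against TA when single libraries were left out. The ratio of mitochondrially encoded to nuclear counts, taken as the mean of log2 CPM, differed by −0.093 in TD against WT and −0.18 in TA against WT, with exact permutation p-values adjusted to 0.343 and 0.914. Leaving out single libraries gave −0.16 to −0.12, −0.49 to −0.22 and, in TD against TA, 0.081 (without TA library 4) to 0.35 (without TA library 1, exact permutation p adjusted to 0.0286). In TD against WT the adjusted exact permutation p was 0.0857 without any single WT library and without TD library 2, 3 or 4, where the libraries left still did not overlap. The cause of these shifts was not tested.

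Libraries with the same replicate number did not deviate together in all pairs (correlations from −0.237 to 0.196), so the numbers were not taken to pair them. With the replicate number as a block, edgeR called 3, 0 and 2 regulators in TD against WT, TA against WT and TD against TA, since Tfam in TD against WT had an adjusted p of 0.0557, and it called 4246, 1560 and 2488 genes. For the ratio, an exact sign-flip test with this block gave −0.14 and −0.39 with p adjusted to 0.188, where 4 pairs allow no p below 0.125.

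Counts limit Esrrg most, at no more than 7 in a library. With 4 libraries a genotype, the 95% intervals of Nrf1 and Polrmt in TD against WT reached from −0.20 to 0.22 and from −0.27 to 0.18 on the log2 scale. Such an interval is not the smallest change that the adjusted test can call. In the simulated data, 50.5% of changes of 0.5 and 77.8% of changes of 1 on this scale were called in TD against WT. There were 99 changed genes of each size among 14925 tested, drawn at random from all genes. This is a far smaller share than the 29.2% called in the data, so the rates do not give those for the regulators.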
